A study of Mus musculus with 32 samples.

Results

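The regions described here were open chromatin peaks of DBA2J mice that were listed in 2 or more types of lung mononuclear phagocyte and overlapped no listed C57BL6J peak. Overlapping peaks of the 4 DBA2J lists were merged into 57654 regions, and a merged region was kept if peaks of at least 2 cell types touched it and no peak of the 4 C57BL6J lists overlapped it. This left 463 regions, which were 0.803% of all DBA2J regions and 1.49% of the 31026 DBA2J regions of 2 or more types. The reverse selection, C57BL6J regions of 2 or more types with no DBA2J peak, gave 7417 of 48135 regions, or 15.4%. The regions were selected on peak presence, so peak lists and peak scores are given below as a description without a test, and RNA is the measure that the choice did not use.

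The study profiled 4 populations sorted from the lungs of untreated mice of 2 inbred strains, C57BL6J and DBA2J, written C57BL6/J and DBA2/J in the strain field of the labels. The populations were patrolling (pMo) and inflammatory (iMo) monocytes, and macrophages of the alveoli (AM) and of the interstitium (IM), where 1 field of the labels calls the iMo and pMo macrophages. They were sorted with antibodies to SiglecF, Ly6g, Ly6c, CD64, CD11b, CD11c, F4/80 and CD45, and no genetic change, age or sex is named for any group. RNA-seq had 2 libraries in each of 8 groups of strain and cell type, and ATAC-seq, which marks accessible DNA by transposase insertion, had 1 peak list per group made from 2 libraries. Nothing in the labels says whether the 2 libraries of a group came from separate animals, so the p-values measure the spread between these libraries, which may be technical.

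Accessible DNA in phagocytes falls into promoters, which are open in most cells that can transcribe the gene, and distal enhancers, which are opened by lineage factors such as PU.1 together with C/EBP, IRF, AP-1 and KLF proteins. Inbred strains differ at many bases and in larger insertions, deletions and gene families, and a sequence variant in or near a factor's site can open or close an element in every cell type that uses it. The build named in the submitters' processing notes is mm10, the C57BL/6J genome, for both strains, so DBA2J sequence that is missing from it could not give a peak.

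The sequences of 5 promoters show what these regions are in the reference, and each was taken from RefSeq's promoter windows on GRCm38.p6 as the 250 bases before the annotated start, read 5′ to 3′ along the gene. Capitals mark the bases inside the DBA2J region. Adgrg5 and Klra3 are shown because their RNA also differed between strains, Steap3 because its region was listed in all 4 DBA2J types, and Syt14 and Agbl4 because each lay in a run of such regions far from any C57BL6J peak.
Adgrg5, chr8:94923444-94923693, plus strand: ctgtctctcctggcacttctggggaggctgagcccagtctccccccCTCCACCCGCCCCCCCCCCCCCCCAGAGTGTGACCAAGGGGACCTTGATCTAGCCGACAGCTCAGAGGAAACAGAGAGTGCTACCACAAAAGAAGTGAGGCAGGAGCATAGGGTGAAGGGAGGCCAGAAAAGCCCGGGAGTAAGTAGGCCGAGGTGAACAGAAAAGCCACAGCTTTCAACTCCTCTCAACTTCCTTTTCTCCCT
Klra3, chr6:130337627-130337876, minus strand: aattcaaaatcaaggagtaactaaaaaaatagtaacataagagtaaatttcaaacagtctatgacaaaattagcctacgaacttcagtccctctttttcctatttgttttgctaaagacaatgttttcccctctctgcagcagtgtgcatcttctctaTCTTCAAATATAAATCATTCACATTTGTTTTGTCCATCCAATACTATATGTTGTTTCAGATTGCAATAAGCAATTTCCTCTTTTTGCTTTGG
Steap3, chr1:120258879-120259128, minus strand: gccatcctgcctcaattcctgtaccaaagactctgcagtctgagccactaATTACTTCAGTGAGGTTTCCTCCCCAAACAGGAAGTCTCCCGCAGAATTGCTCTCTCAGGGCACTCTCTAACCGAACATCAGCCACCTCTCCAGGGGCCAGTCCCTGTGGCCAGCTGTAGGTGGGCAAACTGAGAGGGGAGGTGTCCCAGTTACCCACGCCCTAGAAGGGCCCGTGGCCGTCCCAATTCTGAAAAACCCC
Syt14, chr1:193035776-193036025, minus strand: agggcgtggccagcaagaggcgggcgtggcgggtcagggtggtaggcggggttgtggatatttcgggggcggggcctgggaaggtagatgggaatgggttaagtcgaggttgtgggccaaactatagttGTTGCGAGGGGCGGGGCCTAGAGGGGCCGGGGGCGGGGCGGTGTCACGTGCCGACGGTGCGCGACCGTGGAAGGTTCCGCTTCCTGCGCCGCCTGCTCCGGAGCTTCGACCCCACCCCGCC
Agbl4, chr4:110397448-110397697, plus strand: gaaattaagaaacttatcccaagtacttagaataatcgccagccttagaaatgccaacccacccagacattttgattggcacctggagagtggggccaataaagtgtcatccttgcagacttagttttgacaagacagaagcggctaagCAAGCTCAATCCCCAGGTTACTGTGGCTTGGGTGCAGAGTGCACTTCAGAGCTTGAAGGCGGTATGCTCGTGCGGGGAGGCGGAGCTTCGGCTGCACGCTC
The Steap3 window is at another annotated start than the one used for its RNA, which lay 6322 bp from the region's centre. The DBA2J alleles of these sequences were not used here. Of these upstream bases the DBA2J region covered 204 at Adgrg5, 92 at Klra3, 200 at Steap3, 121 at Syt14 and 101 at Agbl4.

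In all, 37 of the 463 regions overlapped 42 of RefSeq's 300-base promoter windows, which run from 250 bases before to 50 after a start and belonged to 38 genes. The median GC content of these windows was 63.8%, against 52.7% over all windows. Motifs were searched on both strands of the whole window, so a match may lie outside the DBA2J region. The KLF/SP letters GGGCGG were in 31 of the 42 windows (73.8%) and in 35.6% of all 32817 windows of that length. The E-box CACGTG was in 6 windows (14.3%, against 7.15%) and the C/EBP letters TTGCNNAA were in 5 (11.9%, against 10.8%). The ETS core GGAAGT was in 5 windows (11.9%, against 23.8%), and the longer PU.1 form GAGGAAGT, which contains that core, was in 0, against 3.20% of all windows. The AP-1 letters TGANTCA were also in 0 windows, against 7.81%, and the CTCF core GGNGGCAG was in 7 (16.7%, against 12.6%). The IRF motif was in 1 window (2.38%, against 3.43%) and the RUNX letters TGTGGTT in 2 (4.76%, against 5.27%). Among the 12 windows whose region lay 500 bp or more from a C57BL6J peak, the C/EBP letters were in 4 and GGGCGG in 7. The 4 C/EBP windows belonged to only 2 genes, with 3 at Elavl4, a pair of which overlapped almost fully, and 1 at Klra3. The Adgrg5 window held both the ETS core and GGGCGG, and the Klra3 window held the C/EBP letters. In the Klra3 bases shown above, those letters are in lower case, outside the region.

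Most regions were shared by only a pair of cell types. Exactly 2 types were listed at 322 regions, 3 at 98 and all 4 at 43. The share of DBA2J regions without a C57BL6J peak fell with the number of types, from 23.9% of the 26628 regions of 1 type to 4.06% of those of 2, 1.27% of those of 3 and 0.280% of those of 4. The pair of monocytes, iMo and pMo, was the most frequent combination with 102 regions, followed by AM and iMo with 79. These were 5.1% and 3.4% of all DBA2J regions of the same combination, a share given in brackets below. IM and iMo gave 48 regions (4.7%), AM and IM 47 (4.3%), AM and pMo 33 (2.7%), and IM and pMo 13 (4.9%). Among triples, AM with both monocytes gave 38 regions (1.69%) and IM with both monocytes 35 (0.972%). AM with IM and iMo gave 20 (1.41%), and AM with IM and pMo 5 (1.05%). Of all 463 regions, 365 had an iMo peak, 269 a pMo peak, 265 an AM peak and 211 an IM peak.

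**Figure D1:**
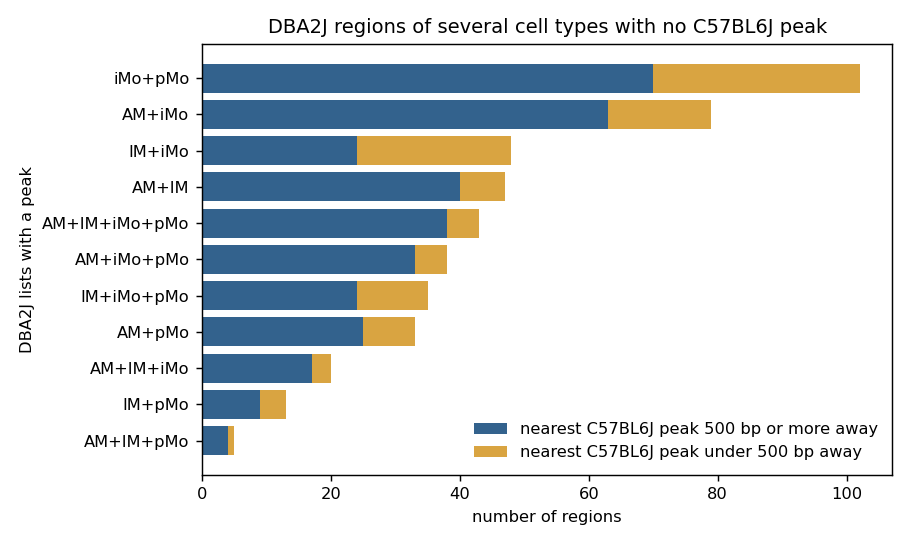
Number of DBA2J regions without an overlapping C57BL6J peak (x axis) for each combination of DBA2J lists (y axis), split by whether a C57BL6J peak lay under 500 bp away. The iMo and pMo pair is the longest bar with 102 regions, and IM and iMo has 24 of its 48 regions beside a C57BL6J peak.

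The lengths of the peak lists bear on these counts. The DBA2J lists held 43690 peaks in AM, 32636 in iMo, 26592 in pMo and 24429 in IM, and the C57BL6J lists held 32668, 35947, 45534 and 70013. Without the C57BL6J IM list, the longest of the 8, 1378 regions would have met the rule in place of 463. Leaving out the DBA2J iMo list left 236 regions, and leaving out the AM list left 304.

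The regions were low in their lists. The within-list percentile of the authors' peak score, where 100 is the highest peak of a list, had a median of 43.8 in AM, 28.2 in iMo, 26.4 in pMo and 20.7 in IM. The DBA2J regions of 2 or more types that did have a C57BL6J peak had medians of 63.3, 57.04, 53.1 and 52.2. Above the 90th percentile of a list there were 5 of the regions in AM, 1 in pMo and 0 in IM and iMo. When only peaks above the median score of each DBA2J list were used, 55 regions were left. The ranks are within a list and show no strain difference in signal, since no source used here gives the scores' scale.

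**Figure D2:**
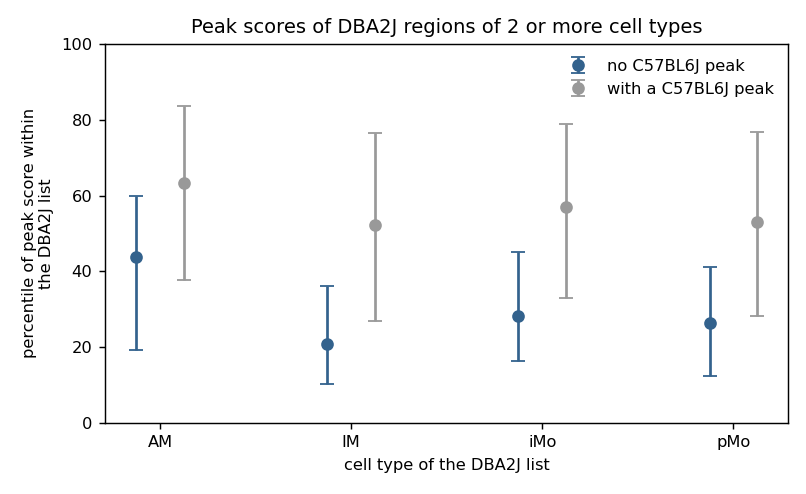
Percentile of peak score within each DBA2J list (y axis, 0 to 100) for regions of 2 or more cell types without (blue) and with (grey) a C57BL6J peak, by cell type (x axis). Points are medians and bars run from the lower to the upper quartile; the medians without a C57BL6J peak range from 20.7 in IM to 43.8 in AM, below the 52.2 to 63.3 of the other regions.

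A few regions ranked high in several types. The region with the highest smallest percentile over all 4 lists was chr14:105300682-105300897, inside the gene body of Ndfip2, a membrane adaptor of NEDD4-family ubiquitin ligases, 42116 bp downstream of its start. Its percentiles were 90.3 in AM, 80.7 in iMo, 73.9 in pMo and 84.8 in IM, and the nearest C57BL6J peak was 4207 bp away. The Ndfip2 RNA difference did not pass the test (log2 difference 0.22, SE 0.13, limma adjusted p = 0.34). The region with the highest AM percentile, 97.6, was chr9:123931070-123931295, 37510 bp downstream of the start of Ccr1, the receptor of inflammatory chemokines such as CCL3, and it lay only 32 bp from a C57BL6J peak.

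The immunoglobulin heavy chain locus on chromosome 12, which holds the V, D and J segments that B cells rearrange, contained 5 of the regions. It was examined after the values had been seen. They were 5 of the 17 DBA2J regions there (29.4%) and 5 of the 9 of 2 or more types. Over the whole genome these shares were 0.803% and 1.49%. The same locus held 36 C57BL6J regions, 18 of them of 2 or more types. The region chr12:114513216-114513449 overlapped the V segment Ighv1-5 and ranked at the percentiles 74.0 in IM, 89.996 in iMo and 90.8 in pMo. The region chr12:115207993-115208226, listed in all 4 types, lay 28 bp from Ighv1-55, with percentiles between 61.6 and 76.3. The others were near Ighv7-4, Ighv1-69 and Ighv8-12 and were iMo and pMo pairs. The kappa light chain locus and the T cell receptor alpha locus had 0 of 3 and 0 of 9 DBA2J regions of this kind. RNA of the B cell markers Cd79a, Cd79b and Ms4a1 was found in these sorts, in TPM (a length-scaled RNA abundance). Mean levels of Cd79a were 2.44 TPM in AM, 12.1 in iMo, 33.9 in pMo and 35.4 in IM, and none of the 3 was at 0 in any library. Cd79a was higher in DBA2J by limma (log2 difference 0.98, adjusted p = 0.0179), Cd79b and Ms4a1 did not pass (adjusted p of 0.16 and 0.32), and their part in these regions was not tested.

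A larger share of these regions than of all DBA2J regions lay far from a transcription start. Within 1 kb of a start there were 87 (18.8%), against 27.7% of all DBA2J regions. The share was 41.1% of the multi-type DBA2J regions with a C57BL6J peak and 12.5% of the reverse C57BL6J selection. More than 100 kb from any start there were 94 (20.3%), against 7.39% of all DBA2J regions and 8.06% of the reverse C57BL6J selection. A further 70 lay at 1 to 10 kb and 212 at 10 to 100 kb. Gene bodies held 194 of them (41.9%, against 45.2%). They were 200 to 548 bp wide with a median of 219 bp, so most were little more than 1 called peak of 200 bp.

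The regions near starts were mostly beside a C57BL6J peak. Over all 463 the median distance to the nearest C57BL6J peak was 6369 bp, 116 (25.1%) had one under 500 bp away, and 52 had none within 100 kb. Of the 116 with a near C57BL6J peak, 68 (58.6%) were within 1 kb of a start, while only 19 of the other 347 (5.48%) were. At the rule's limit, the closest region stood 2 bp from a C57BL6J peak, at the start of Pfkfb4, a kinase and phosphatase that sets fructose 2,6-bisphosphate. A total of 19 regions had a gap under 50 bp. On the other side, the smallest overlap that removed a multi-type DBA2J region was 3 bp, and 11 were removed by an overlap under 50 bp. At Pfkfb4 the region ranked at percentile 82.1 in IM and 87.7 in iMo, and its RNA difference did not pass the test (log2 difference 0.11, SE 0.07, limma adjusted p = 0.41).

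Chromosome 1 held 70 of the regions, 15.1% of them against 6.79% of all DBA2J regions. This was 1.79% of its DBA2J regions, more than on any other chromosome except Y, where 2 of 14 DBA2J regions qualified. Chromosome 14 followed with 1.37%. Chromosome 11 had 14 regions (0.336%) and chromosome X had 1 of 989. Among 275 windows of 10 Mb, 160 to 170 Mb of chromosome 1 had the most, 17 of 289 DBA2J regions (5.88%), and 87 windows had none.

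**Figure D3:**
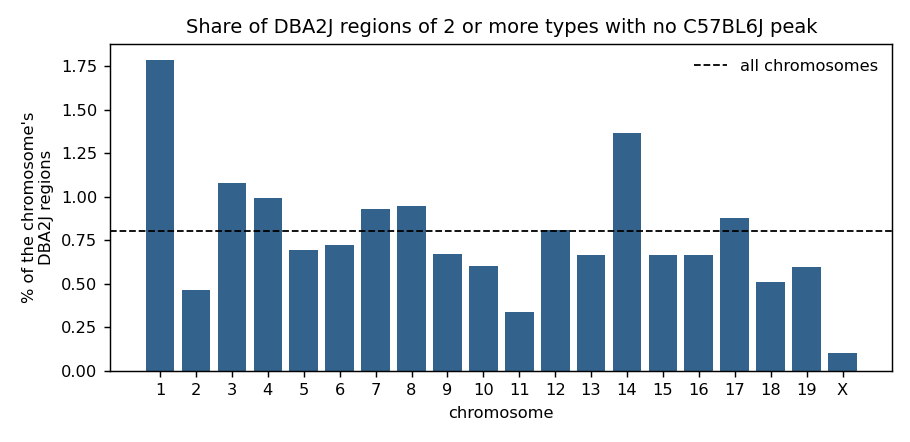
Percent of each chromosome's merged DBA2J regions (y axis) that were listed in 2 or more types and had no C57BL6J peak, for chromosomes 1 to 19 and X (x axis), with the value over all chromosomes as a dashed line. Chromosome 1 stands highest at 1.79% and X lowest of those drawn, with 1 of 989 regions; Y, with 2 of 14, is not drawn.

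The 17 regions of that window ran from Rc3h1 to Fam78b. They included 2 that were listed in all 4 types, chr1:162224875-162225108 within Dnm3 and its antisense transcript Dnm3os near Mir214, and chr1:164170510-164170729 inside the gene for coagulation factor V. They also included 3 regions nearest to Gorab, a golgin-associated protein, 1 of them 28037 bp downstream of its start and the others 79581 and 158824 bp upstream. The RNA of Gorab was higher in DBA2J (log2 difference 0.60, SE 0.13, limma adjusted p = 0.011).

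In total 90 regions had another one within 100 kb, in 42 groups, of which 4 held 3 or more. The longest run was 5 regions at Syt14, which encodes a synaptotagmin-family membrane protein, between bases 192981821 and 193036239 of chromosome 1. There 3 lay inside the gene body and 2 at the start, and the nearest C57BL6J peaks were 24009 to 78204 bp away. A run of 3 linked the start of Elavl4, a neuronal RNA-binding protein, with the start of Agbl4, a deglutamylase of tubulin, on chromosome 4. These 3 lay 236249 to 346372 bp from any C57BL6J peak. The other 2 runs of 3 were at 4931408C20Rik on chromosome 1 and around 115 Mb of chromosome 7, the latter more than 100 kb from a start.

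For the RNA comparison each region was assigned to the gene with the nearest start within 100 kb, which gave 346 genes for 369 regions. Of these genes 214 had a mean of 1 TPM or more across the 16 libraries and were tested, and 132 fell below this filter. Strain differences are DBA2J minus C57BL6J on the scale log2(TPM + 1), averaged over the cell types unless one is named, with Benjamini-Hochberg adjustment over all 12277 genes tested by limma. A gene was called at an adjusted p under 0.05. In bulk samples, fewer cells of a type and less RNA per cell cannot be told apart.

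Of the 214 tested genes, 32 were higher in DBA2J and 17 were lower. Over all tested genes 4.37% were called higher and 7.31% lower. With the library scaling replaced by median-of-ratios, the shares over all genes were 7.91% higher and 7.78% lower, and 47 assigned genes were higher and 18 lower. The median log2 difference of the assigned genes was 0.03, against -0.06 over all genes tested. Among the 32 higher genes, 9 had a C57BL6J mean under 1 TPM and so passed the filter through DBA2J. For comparison, DBA2J regions of 2 or more types that did have a C57BL6J peak were assigned to 9956 tested genes, of which 4.03% were higher and 7.16% lower.

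Several of the largest RNA differences were at genes whose start was close to an isolated region. The 19 regions within 1 kb of a start and 500 bp or more from a C57BL6J peak belonged to 18 genes. This distance is from the region, so a C57BL6J peak could still lie at the start itself, as at 4931408C20Rik. Without the filter on low values 17 of these could be tested, and 10 were higher and 0 lower in DBA2J, where 3.4% of all 20992 genes were called higher and 5.09% lower. With the filter 10 could be tested and 8 were higher, of which 4 passed it through DBA2J only. These were 4931408C20Rik, Stab2, Nov and Klra3, and no other of the 10 had a C57BL6J mean under 1 TPM. By contrast, 68 genes had a region within 1 kb of the start that lay under 500 bp from a C57BL6J peak, and all were testable without the filter. In them 3 were higher (Glo1, Gm13212 and Plxdc2) and 2 lower (Spry2 and Zfp33b). The difference between the 2 sets of start regions was not tested. In the reverse direction, C57BL6J regions of this isolated kind at starts belonged to 281 tested genes, of which 20 were higher and 53 lower in DBA2J.

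**Figure D4:**
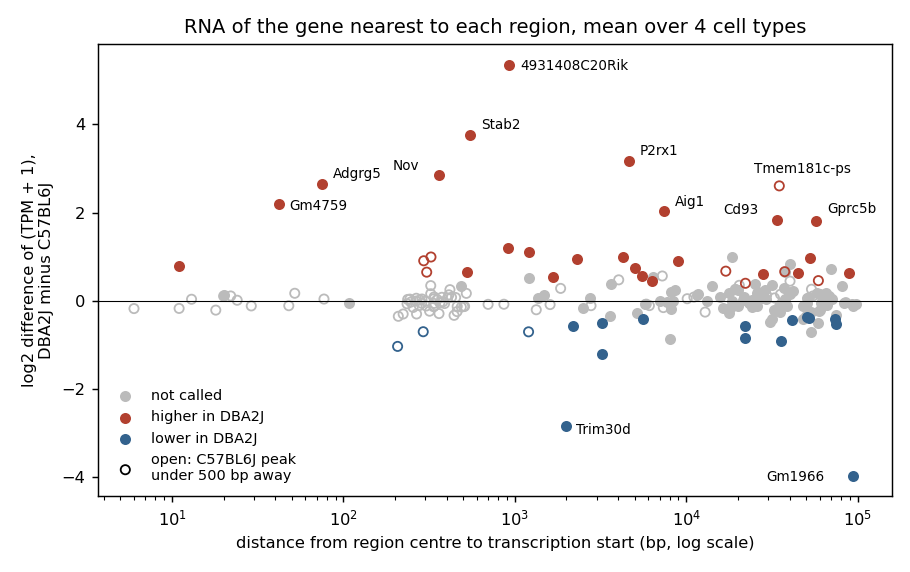
Log2 difference of (TPM + 1), DBA2J minus C57BL6J, averaged over 4 cell types (y axis) of each of the 214 tested genes against the distance from its nearest region to its start (x axis, log scale). Open circles are genes whose regions all had a C57BL6J peak under 500 bp away. A gene with any region farther from one is filled. The genes called higher at starts with filled circles reach 5.35 for 4931408C20Rik, and Trim30d and Gm1966 lie lowest at -2.84 and -3.96.

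Stab2, the stabilin-2 scavenger receptor that takes up hyaluronan, had an AM and IM region at chr10:87007268-87007514, inside the gene body 551 bp after the start, and 17453 bp from any C57BL6J peak. In C57BL6J its RNA was at 0.047 and 0.023 TPM in AM, 0.087 and 0.206 in IM, 0.009 and 0 in iMo, and 0.014 and 0.051 in pMo. In DBA2J it was at 6.43 and 7.53 TPM in AM, 25.7 and 24.8 in IM, 10.6 and 10.7 in iMo, and 14.6 and 17.6 in pMo. All 8 DBA2J libraries were above all 8 C57BL6J libraries, also in the monocytes, whose lists did not hold the peak. The log2 difference was 3.76 (SE 0.09, limma adjusted p = 3.77e-10).

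Nov, also named Ccn3, encodes a secreted matricellular protein. Its region, chr15:54745464-54745666, lay 363 bp upstream of the start in AM and IM, at the percentiles 74.8 and 13.2, and 90379 bp from a C57BL6J peak. DBA2J AM had 69.1 and 66.9 TPM and DBA2J IM 27.7 and 33.1, against 0.497 and 0.733 in C57BL6J AM and 0.661 and 0 in C57BL6J IM. In the monocytes, whose lists had no peak there, the 4 C57BL6J libraries were listed at 0 and the DBA2J libraries were at 0.319 and 0 in iMo and at 0.947 and 1.49 in pMo. The types with the peak were thus those above 20 TPM, and the strain difference varied between types (interaction F-test, limma adjusted p = 4.84e-05). The log2 difference was 5.42 in AM (SE 0.26, adjusted p = 6.7e-07) and 4.60 in IM (adjusted p = 3.31e-06), and the low pMo levels also passed (limma adjusted p = 0.0362).

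The transcript 4931408C20Rik on chromosome 1 had 3 regions, 1 inside the gene body 927 bp after the start and a pair farther downstream, at 40267 and 40826 bp. The first was listed in iMo and pMo and lay 791 bp from a C57BL6J peak, which was at the annotated start. The pair lay 40136 and 40686 bp from that C57BL6J peak. Together they carried peaks of IM, iMo and pMo and none of AM, and the only IM peak was in the region at 40826 bp. DBA2J levels were 96.6 and 98.6 TPM in IM, 103 and 114 in iMo, and 215 and 294 in pMo, but 0.05 and 0.925 in AM. All C57BL6J libraries were listed at 0 except 1 iMo library at 0.933. Counted over the 3 regions, the types with peaks were those with RNA, but IM had RNA without a peak in the start region. The interaction passed the test (limma adjusted p = 3.31e-05). The log2 difference averaged over the types was 5.35 (SE 0.16, limma adjusted p = 2.77e-09), and it is not a fold, since most C57BL6J values were 0.

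Adgrg5, an adhesion G protein-coupled receptor, had the region shown above by sequence, chr8:94923490-94923748, centred 75 bp upstream of its start. It was listed in AM, iMo and pMo, at percentiles of 36.0, 21.2 and 26.4, 5355 bp from a C57BL6J peak. DBA2J iMo had 133 and 121 TPM, against 2.46 and 4.78 in C57BL6J iMo. DBA2J IM had 24.6 and 26.7 against 2.43 and 2.67, and DBA2J pMo 20.4 and 21.7 against 3.39 and 2.79. In AM, where the peak was listed, the levels were 0.587 and 0.517 in DBA2J and 0.088 and 0.24 in C57BL6J, and the difference did not pass the test (limma adjusted p = 0.55). RNA and peak therefore differed in where they were found: IM had the RNA without a listed peak, and AM had the peak with under 1 TPM.

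**Figure D5:**
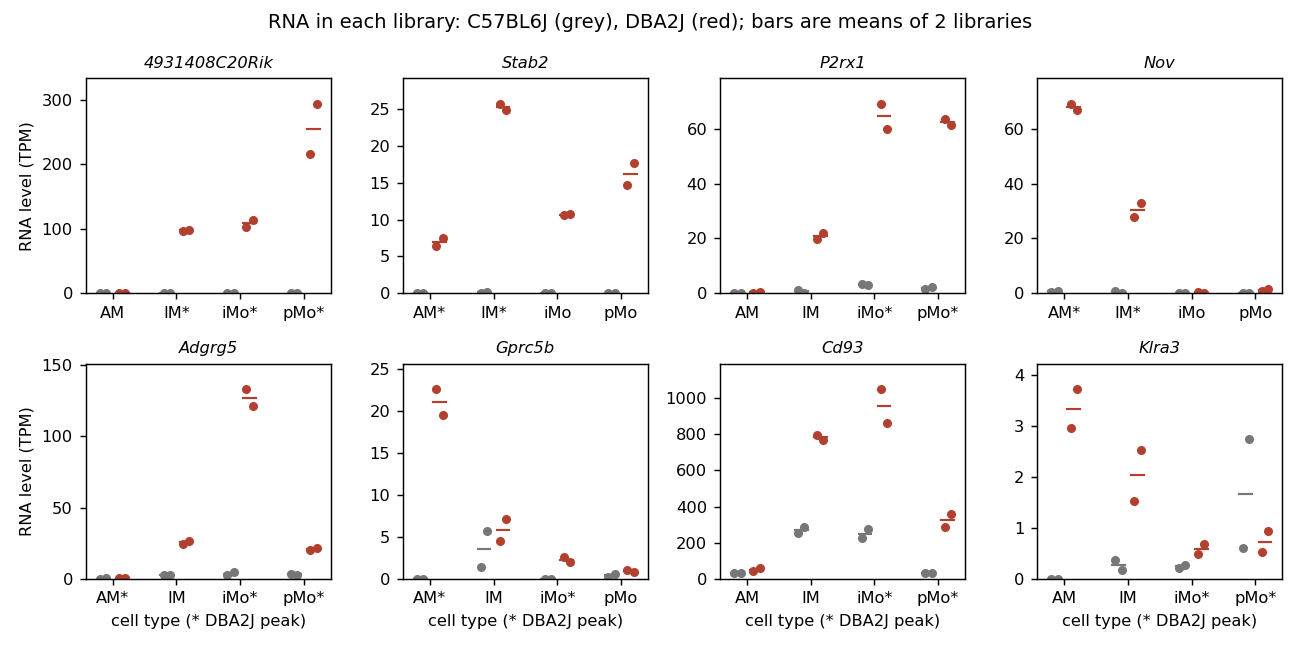
RNA level in TPM (y axis, linear, a scale per gene) in every library of C57BL6J (grey) and DBA2J (red) for 8 genes, by cell type (x axis); an asterisk marks a type whose DBA2J list held the region, and bars are means of 2 libraries. Nov and 4931408C20Rik have DBA2J levels above 20 TPM only in types with an asterisk, while Stab2 is also high in types without one and Adgrg5 is under 1 TPM in AM despite one. The IM asterisk of 4931408C20Rik stands for a region 40826 bp from the start and not for its start region.

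Klra3, a lectin-like receptor of the Ly49 family, had a region over its start in iMo and pMo, 361045 bp from a C57BL6J peak. Its RNA was 2.95 and 3.72 TPM in DBA2J AM, where both C57BL6J libraries were listed at 0. In the monocytes that had the peak, the strains overlapped in pMo (0.517 and 0.943 in DBA2J, 0.599 and 2.74 in C57BL6J), and iMo stood at 0.479 and 0.684 against 0.21 and 0.276. The average log2 difference was 0.80 (SE 0.18, limma adjusted p = 0.0149). The C57BL6J mean of Klra3 was 0.54 TPM, so it passed the filter on low values through DBA2J. Ly49 genes are near-identical copies whose number differs between strains, so reads may have been split between Klra3, Klra15 and Klra22, which share this interval in the annotation.

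Gm4759 is a further start gene of a repeated family, the very large interferon-inducible GTPases, and its region lay 42 bp upstream of the start in IM, iMo and pMo. DBA2J levels were 23.2 and 20.9 TPM in IM, 24.4 and 19.0 in iMo and 10.99 and 14.5 in pMo, against at most 5.08 in any C57BL6J library. A neighbour of that family, Gm1966, moved the other way. Its C57BL6J libraries ran from 17.9 through a median of 58.6 to 127 TPM and its DBA2J libraries from 0.143 through 3.31 to 5.50, with no overlap, although the nearest region, 93238 bp away, was a DBA2J peak of AM, IM and pMo. The log2 differences were 2.19 (SE 0.25, limma adjusted p = 0.000138) and -3.96 (SE 0.21, limma adjusted p = 4.07e-07). Reads of such copies may be assigned to either, so both values are uncertain.

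The other called genes of isolated start regions were 2610203C22Rik and Gm6498, both non-coding. 2610203C22Rik was at 3.69 and 4.82 TPM in DBA2J AM against 0.868 and 0.717, but in IM, which also had the peak, it was at 20.4 and 17.4 against 12.5 and 15.9 (limma adjusted p = 0.34). It was also higher in the monocytes, which lacked the peak, with log2 differences of 1.82 in iMo and 1.03 in pMo (limma adjusted p of 0.00113 and 0.0362). Gm6498 gave a log2 difference of 0.66 (limma adjusted p = 0.038), and this call was lost in 15 of 22 alternative fits.

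Among the genes that the filter removed, Syt14, Elavl4 and Agbl4 passed the test without it. They are named here because of their runs of regions, after their values had been seen. Elavl4 was at 2.46 and 2.19 TPM in DBA2J IM against 0.448 and 0.457 in C57BL6J IM, and at 0.376 and 0.154 in DBA2J iMo against 0.018 and 0.016. In pMo it was at 0.339 and 0.362 against 0.021 and 0.082, and its regions were listed in iMo and pMo but not in IM. Syt14 was highest in DBA2J AM, at 0.467 and 0.672 TPM against 0.027 and 0.033. Agbl4 did not exceed 0.153 TPM in any library. The other untested genes at such starts were Olfr432, Myb, Mir7094-2, Cdkl4 and Ttc34, of which Mir7094-2 was listed at 0 in every library and the others did not pass without the filter.

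Farther from starts, P2rx1, an ATP-gated cation channel, had an iMo and pMo region 4642 bp upstream of its start and 3169 bp from a C57BL6J peak. DBA2J levels were 69.2 and 60.2 TPM in iMo and 63.7 and 61.6 in pMo, against 3.23 and 2.80 and against 1.50 and 2.24 in C57BL6J. In IM, where no peak was listed, DBA2J had 19.7 and 21.9 against 1.16 and 0.148, and in AM no library exceeded 0.53. The log2 difference was 4.03 in iMo (SE 0.27, limma adjusted p = 5.54e-06) and 4.48 in pMo (SE 0.27, limma adjusted p = 3.56e-06). The interaction passed the test (limma adjusted p = 4.98e-04).

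Cd93, a C-type lectin-like receptor of myeloid and endothelial cells, had an iMo and pMo region 34021 bp upstream. It was at 1049.9 and 860.2 TPM in DBA2J iMo against 224 and 276 in C57BL6J, and at 287 and 358 in DBA2J pMo against 32.4 and 31.3. IM, without the peak, had 798 and 770.5 against 256 and 289. The log2 differences were 3.29 in pMo, 1.93 in iMo and 1.52 in IM (SE 0.18 each; limma adjusted p of 1.6e-06, 9.43e-05 and 0.000514), and AM, at 0.60, did not pass (limma adjusted p = 0.12). The 4 endothelial markers were summed at 9.33 to 174 TPM in C57BL6J libraries and at 11.7 to 82.4 in DBA2J libraries, none was at 0 in every library, and 1 of the 4 was called higher in DBA2J. Their part in the Cd93 difference was not tested.

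Gprc5b, an orphan G protein-coupled receptor, had an AM and iMo region within the neighbouring gene Iqck, 57309 bp from its start. DBA2J AM had 22.5 and 19.5 TPM, against 0.019 and 0.023 in C57BL6J AM. DBA2J iMo had 2.53 and 1.95 where both C57BL6J libraries were listed at 0, and IM, with no peak, overlapped between the strains. The log2 difference was 4.43 in AM (SE 0.39, limma adjusted p = 5.41e-05) and 1.69 in iMo (adjusted p = 0.0365).

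Aig1, a hydrolase of fatty acid esters, carried 2 regions inside its gene body, 7421 and 31805 bp from its start, in AM, IM and iMo between them. Its C57BL6J libraries ran from 0.524 through 0.918 to 1.40 TPM and its DBA2J libraries from 2.25 through 8.03 to 10.2, without overlap (log2 difference 2.02, SE 0.13, limma adjusted p = 1.43e-06). Tmem181c-ps, a pseudogene whose reads its parent may share, also did not overlap, at 0 to 1.32 TPM against 2.74 to 10.6. Its region was 34872 bp away and only 27 bp from a C57BL6J peak, and it overlapped a RefSeq promoter window of another gene, Dynlt1f.

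Of the fixed list of 36 phagocyte receptors, 3 were assigned to a region. Msr1, the class A scavenger receptor, was higher in DBA2J (log2 difference 0.96, limma adjusted p = 0.00137), mostly in AM, with 6.03 and 8.18 TPM against 0.683 and 0.759. Its region, 52843 bp upstream, was listed in iMo and pMo, where the log2 differences were 0.34 and did not pass the test. Ccr1 was higher in DBA2J IM, at 319 and 262 TPM against 112 and 111, and in DBA2J iMo, at 41.9 and 33.5 against 12.03 and 7.84. In AM and pMo, the types with its peak, the log2 differences were -0.29 and -0.27 and did not pass (limma adjusted p of 0.88 and 0.66). Csf2ra, the GM-CSF receptor alpha chain, did not pass (log2 difference -0.04, limma adjusted p = 0.82). Over that whole list 8 genes were higher and 7 lower. Neutrophil markers moved with this sort: all 7 were highest in IM, their summed level reached 3119 TPM in C57BL6J and 4699 in DBA2J libraries, and 1 of the 6 tested, S100a8, was higher in DBA2J. Ly6g, an antigen of the sort panel, averaged only 1.12 TPM in IM, and the labels do not say how its antibody was gated. Ccr1 is also expressed by neutrophils, and the markers' part in its IM difference was not tested.

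The other fixed lists had few members among the assigned genes. Of 30 interferon-stimulated genes 1 was assigned, Trim30d, and of 30 genes of pattern recognition and inflammatory signalling 1, Tnfaip3, the ubiquitin-editing inhibitor of NF-kappaB. Of 34 lineage transcription factors 0 were assigned, and of 22 lysosome and lipid genes 2, Ctsl and Lpl, neither of which passed the test. None of the marker genes of the 4 sorted types was assigned to a region. Each sort was highest in its own markers for 8 of 9 AM, 8 of 9 IM, 5 of 6 iMo and 6 of 7 pMo markers. In DBA2J, 5 of 9 AM, 1 of 9 IM and 2 of 7 pMo markers were lower and 0 higher, and 2 of 6 iMo markers (Ccr2 and Vcan) were higher and 0 lower, beside the 7.31% lower and 4.37% higher over all genes.

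Further higher genes with smaller differences were Fez2 (log2 difference 1.11), Chpt1 (0.91) and Glo1 (0.91). Fez2 is a fasciculation and elongation protein and had an IM, iMo and pMo region 1212 bp upstream of its start. Its DBA2J levels exceeded the C57BL6J levels in each of the 4 types, for example 4.84 and 5.79 against 1.88 and 1.48 TPM in AM, and each difference passed the test (limma adjusted p from 0.0104 to 0.0289). Chpt1, a choline phosphotransferase of phosphatidylcholine synthesis, had a region of all 4 types inside its gene body. It was higher in AM (7.59 and 8.44 TPM against 2.21 and 2.05) and IM (8.16 and 8.68 against 4.75 and 2.44), and the monocyte differences, 0.73 and 0.30, did not pass. Glo1, which detoxifies methylglyoxal, had an IM and iMo region 294 bp into the gene, 116 bp from a C57BL6J peak, and ran from 3.54 to 8.22 TPM in DBA2J and from 1.36 to 4.47 in C57BL6J. Gm13212 and Zfp33b belong to the large family of zinc finger genes, where reads may be split between copies, and gave log2 differences of 0.99 and -1.03.

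Plxdc2, a transmembrane protein with a plexin-like domain, had a region 306 bp upstream of its start in AM and iMo. Its difference passed only in IM, at 15.04 and 17.99 TPM against 7.69 and 6.45 (limma adjusted p = 0.0308). Steap3, a ferrireductase of endosomal iron uptake, whose region of all 4 types is shown above by sequence, had a log2 difference of 0.45 (SE 0.12, limma adjusted p = 0.029). That region lay inside the gene body, 6322 bp downstream of the start used for RNA. The RNA difference passed in none of the types alone, and Steap3 was chosen after its values were seen.

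A DBA2J peak was also found beside genes that were lower in DBA2J. They were 7.94% of the 214 assigned genes tested, near the 7.31% over all genes tested. Trim30d, an interferon-inducible member of the repeated Trim30 family, had an IM, iMo and pMo region inside the gene 1975 bp after its start, 1822 bp from a C57BL6J peak. DBA2J levels were 3.31 and 2.40 TPM in IM, 2.10 and 2.33 in iMo, and 0.235 and 0.227 in pMo. The C57BL6J levels were 31.4 and 20.4, 25.4 and 41.8, and 8.38 and 17.1. It was lower in all 4 types, with a log2 difference of -2.84 (SE 0.16, limma adjusted p = 5.89e-07), and reads may be shared with other Trim30 copies.

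Fam78b had an iMo and pMo region inside its gene body, and its RNA differed in AM, which did not have the peak. DBA2J AM had 0.284 and 0.207 TPM against 9.43 and 7.96 (log2 difference -2.96, SE 0.23, limma adjusted p = 1.87e-05). In iMo, with 12.1 and 8.81 against 10.5 and 8.20, the strains overlapped, as they did in pMo. Spef1, a microtubule-associated protein of cilia, had a region of all 4 types 3208 bp into its gene. It was lower in DBA2J AM, at 9.24 and 8.91 TPM against 46.6 and 37.4, and in IM, at 2.12 and 1.83 against 8.42 and 7.57.

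Lgals3, the beta-galactoside-binding lectin galectin-3, had 2 regions on either side of it, 22005 and 23808 bp from its start, which carried AM, iMo and pMo peaks. It was lower in DBA2J IM, with 131 and 140 TPM against 260.2 and 276, and in iMo, with 258 and 198 against 396 and 339, but AM stood at 378 and 376 against 402 and 376. Tnfaip3 was lower by 0.36 on the log2 scale on average (limma adjusted p = 0.0235), a call that was lost in 7 of 22 alternative fits, both other scalings included. Mzt1, Fuca2, Spry2, Aen, D2hgdh, Edem1 and Fam126a made up the rest of the named lower genes, with average log2 differences between -0.92 and -0.40. Of these Mzt1, Fuca2 and Fam126a passed in pMo alone among the single types and Spry2, Aen, D2hgdh and Edem1 in none.

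Peak and RNA were then set side by side within each cell type. The assigned tested genes gave 517 pairs of a gene and a type whose DBA2J list held the peak, of which 37 were higher in DBA2J and 14 lower by limma. These were 7.16% and 2.71%, while over all genes and types 2.11% were higher and 3.12% lower. The 339 pairs of the same genes with a type that lacked the peak gave 22 higher and 16 lower (6.49% and 4.72%). In the types with the peak the higher and lower calls were 7 and 3 of 121 in AM, where 1.99% of all genes were higher and 1.3% lower, and 14 and 6 of 101 in IM, where 3.77% and 6.74% were. They were 10 and 2 of 171 in iMo (1.31% and 2.16% of all genes) and 6 and 3 of 124 in pMo (1.36% and 2.3%). The difference between pairs with and without the peak was not tested.

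The strain by cell type interaction passed the test in 14 of the 214 assigned genes, where 4.03% of all tested genes passed. The 8 DBA2J and 8 C57BL6J libraries did not overlap in 3 higher genes (Stab2, Tmem181c-ps and Aig1) and 1 lower gene (Gm1966). Over all tested genes 0.301% did not overlap upward and 0.383% downward. The 3 higher genes had C57BL6J means of 0.055, 0.42 and 0.87 TPM, so they passed the filter on low values through DBA2J.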

How the data were processed

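RNA-seq (16 libraries) and ATAC-seq (8 peak lists, each made from 2 libraries) were taken as deposited. The RNA table holds TPM per gene for 24940 genes, computed by the authors, with sums of 632076 to 822130 TPM per library over the rows given. Each peak list, deposited without a header, holds peaks of 200 bp with a score by the authors on a scale not given in the sources used here, so scores were used only as ranks within a list. Its file is named for IDR optimal peaks, and it also holds a column of another kind that is 0 in every row and was not used. Per the submitters' processing notes the build was mm10 and the tools were Bowtie, STAR and HOMER, without versions or roles. No counts or depths were used here, so the depth of a library is unknown and error comes from the spread of 2 libraries per group.

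Peaks were merged where they overlapped by at least 1 bp (python 3.11.15, pandas 2.3.3). A region took the gene whose start was nearest, up to 100 kb from the region's centre, and gene starts came from the deposited table's coordinates. The model, fitted by limma 3.58.1 (R 4.3.3) to log2(TPM + 1), had 8 group means, which left 8 residual degrees of freedom, and used eBayes with a variance trend. Genes needed a mean of at least 1 TPM, and calls needed a Benjamini-Hochberg adjusted p under 0.05 within the contrast. On simulated data with 200 changed genes among 12277, the averaged contrast recovered 87% of log2 changes of 1 and 98% of changes of 2. Contrasts within a type recovered 36% to 42% and 83% to 89%. In these simulated data the change was the same in all 4 types. For the interaction the change was put in AM alone, and 5% and 50% were recovered. Recovery by the averaged contrast of changes in only some types is not given here.

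The regions, gene lists and tests were chosen with earlier results of these data known. Named regions were the 12 of all 4 types with the highest smallest percentile, the 3 top regions of other combinations, and regions within 1 kb of the start of a called gene. Named genes were the 12 largest called differences in each direction with at least 5 TPM in the higher strain, leaving out predicted genes (Gm and Rik names) and antigen receptor segments, called genes without overlap and with at least 5 TPM, and called members of the lists. Motifs were counted in RefSeq promoter windows (GRCm38.p6) only, as no genome was used here. The alternatives were other pseudocounts, filters, scalings, assignment windows and list choices, and each library left out. The result of 1 listed marker is not reported here.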

Additional observations from a re-analysis of the deposited data

Results flagged for a closer look

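The strain difference of 9 named genes varied between the cell types by limma's interaction F-test, adjusted over all 12277 genes tested. The adjusted p was 3.31e-05 for 4931408C20Rik, 4.84e-05 for Nov, 1.33e-04 for Adgrg5 and 4.98e-04 for P2rx1. It was 9.84e-04 for Fam78b, 9.88e-04 for Cd93, 0.00577 for Gprc5b, 0.0153 for Ccr1 and 0.0157 for Stab2. Nov and Gprc5b had their largest log2 differences in AM (5.42 and 4.43), and 4931408C20Rik, P2rx1 and Cd93 had theirs in pMo (7.98, 4.48 and 3.29). Adgrg5 and Ccr1 differed most in iMo (4.84 and 1.84), Stab2 in IM (4.52), and Fam78b in AM, where DBA2J was lower (-2.96).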

How the results depend on the processing

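Of 748 refits of the 34 named genes (22 alternatives each), 698 kept direction and call, 50 lost the call and 0 reversed. The lost calls were in Edem1, Fam126a, Gm6498, Spry2 and Tnfaip3. The number of regions moved to 55 with peaks above the median score of each DBA2J list, 1378 without the C57BL6J IM list, 304 without the DBA2J AM list and 236 without the DBA2J iMo list.

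The 14 interaction calls of 214 genes became 25 of 319 without the filter. They became 28 with median-of-ratios scaling (6.19% of all genes) and 30 with quantile normalization (7.49%). With assignment within 20 kb they became 9, and with every gene within 50 kb 33. They became 9 of 128 genes with only the regions 500 bp or more from a C57BL6J peak, an alternative chosen after seeing the data. The filter, the assignment windows and that limit changed the set of genes tested, so their counts alone do not show a change in share. Within types with the peak, the 37 higher calls became 60 with median-of-ratios scaling (3.45% of all pairs) and 62 with every gene within 50 kb. There the 14 lower calls became 9 within 20 kb and 25 within 50 kb, and the 17 averaged lower calls became 8 and 33. These windows again changed the set of genes.

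Leaving out 1 library at a time gave 26 to 35 averaged higher and 11 to 20 averaged lower calls (11 without AM C57BL6J replicate 1), 33 to 44 higher and 10 to 19 lower calls within types, and 10 to 24 interaction calls. The interaction count was 24 without IM C57BL6J replicate 1 and 23 without pMo C57BL6J replicate 1. Where a group was left with 1 library, it was assumed to vary like the others. The shares of calls over all genes in those fits are not given here. Replicate numbers did not pair the libraries: residuals of the same number correlated at a median of 0.02 over 28 pairs of groups (-0.07 to 0.20, 5 over 0.1). With the replicate number as a block, the counts were 31 and 17 averaged, 37 and 16 within types, and 13 for the interaction. Peak lists have no replicate lists, so the error of a missing peak is unknown.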
